A study of Mus musculus with 4 samples.

Results

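Mitochondrial fatty acid oxidation was examined through 9 genes: 7 enzymes of the pathway (Cpt1a, Cpt2, Acadm, Acadl, Acadvl, Hadha, Hadhb) and 2 regulators of its transcription (Ppara, Ppargc1a). They were found among 18193 named genes by matching the symbols in the platform annotation, which gave 21 probe sets for all 9 genes. For each gene the brightest probe set on average over the 4 arrays stands for it, and the 12 further probe sets are given beside these. The arrays measured K7M2, a metastatic osteosarcoma line from mouse, grown in serum-containing medium. One culture type over-expressed GFP alone (1 array) and the other ezrinT567A-GFP (3 arrays, replicates 1 to 3). Ezrin ties membrane proteins to cortical actin, and T567A names a mutant whose regulatory threonine is replaced by alanine and cannot be phosphorylated. The labels do not give the promoter of the transgenes, a clone, or whether the replicates were separate cultures, so the p-values below reflect array-to-array spread that may be technical.

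Long-chain fatty acids enter mitochondria as carnitine esters. An acyltransferase of the outer membrane (Cpt1a) makes the ester and one of the inner membrane (Cpt2) returns the acyl group to coenzyme A. Acyl-CoA dehydrogenases of medium (Acadm), long (Acadl) and very long (Acadvl) chain specificity then take the first oxidation step, and the trifunctional protein, built from Hadha and Hadhb, carries out the remaining steps for long chains. In liver, heart and muscle these genes are known targets of the nuclear receptor PPAR-alpha (Ppara) and its coactivator PGC-1-alpha (Ppargc1a).

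Limma called none of the 9 genes, the differences were small, and for all 6 genes with several probe sets these gave differences of both signs. With the brightest probe sets, 5 genes had a positive and 4 a negative difference (56.1% and 43.9% of all genes did), from -0.56 for Ppargc1a to 0.26 for Acadm (log2, ezrinT567A-GFP mean minus GFP). The median of the 9 mean differences was 0.083, beside 0.032 over all 18193 genes, and it was 0.0096 without replicate 1, 0.050 without replicate 2 and 0.016 when probe sets were averaged. Taken array by array, the median over the 9 genes was 0.0069, 0.070 and -0.059 in replicates 1, 2 and 3 (SD 0.065, n = 3). Limma's adjusted p ran from 0.285 to 0.852, and 0 of 9 genes passed at 0.05, as did 0 of 18193 genes (0%). At an unadjusted p under 0.05 there was 1 gene, Ppargc1a, on the lower side, beside 14.0% of all genes (7.46% higher and 6.50% lower). At least 2-fold apart were 0 of the 9 genes, beside 0.973% of all genes on the higher and 0.704% on the lower side. All 3 ezrinT567A-GFP arrays lay on one side of GFP for 8 of the 9 genes, 4 above and 4 below, where 32.5% of all genes lay above and 25.6% below (58.0% together). The 95% interval of the difference lay inside 2-fold either way for 9 of 9 genes, as for 87.7% of all genes. With 1 GFP array, whose spread was assumed to equal that of the others, an exact permutation test cannot go below p = 0.25.

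**Figure D1:**
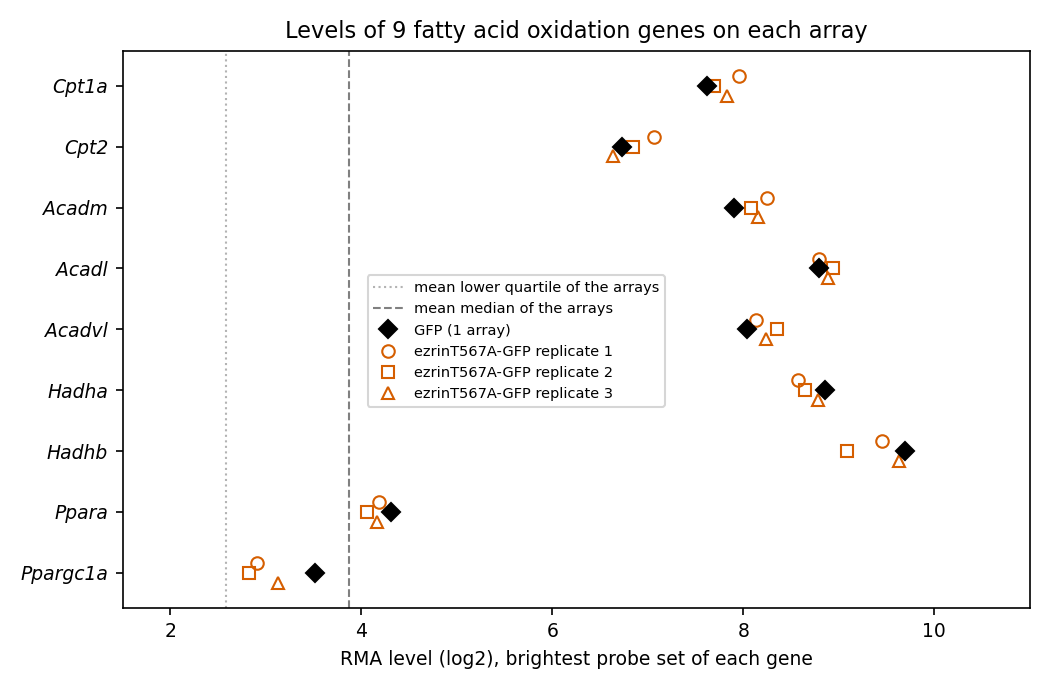
RMA level on the log2 scale (horizontal axis) of the brightest probe set of each of the 9 genes on the GFP array (black diamond) and on ezrinT567A-GFP replicates 1 to 3 (open orange symbols). Vertical lines mark the mean lower quartile and mean median of the arrays. Cpt1a, Acadm, Acadl and Acadvl have all orange symbols to the right of the diamond, and Hadha, Hadhb, Ppara and Ppargc1a have all of them to the left. Positions of different genes are not comparable, because probe sets differ in brightness.

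The arrays differed in their control signals, while their overall levels were brought close together by RMA. Array medians lay between 3.85 and 3.89 and lower quartiles between 2.55 and 2.62 (log2), and signal over background was not analysed here. Hybridization spike-ins averaged 9.32 on the GFP array and 10.1, 11.1 and 10.4 on replicates 1, 2 and 3. The 18S rRNA signal was 9.09 on GFP and 7.65, 11.3 and 7.76 on the replicates, so that replicate 2 stood apart. The ratio of 3-prime to 5-prime signal was -0.27 for Gapdh and 0.23 for Actb on GFP against -0.24 to -0.18 and 0.31 to 0.43 (log2). On the spike-ins and on both ratios the GFP array lay below all 3 replicates. These shifts run with the group and cannot be told apart from it. The part of the control signals in the differences was not tested. Ezr itself was 8.90 on GFP and 8.91 ± 0.09 (SD, n = 3) by its brighter probe set. Its second probe set measured 8.63 on GFP and 9.08, 8.75 and 9.05 on the replicates (difference 0.33, SE 0.18), and where the transgene lies relative to its probe sets is not known. Of 7 measured osteoblast-lineage markers 5 lay above the array median on every array, among them Col1a1 (11.3 on GFP) and Col1a2 (12.3), while Alpl (3.63 on GFP) and Ibsp (2.78) did not. Of all 18193 genes, 11172 lay above the array median on every array. Of markers of tissues that burn or store fat, 1 of 6 for adipocytes, 2 of 4 for hepatocytes and 3 of 7 for striated muscle did. Those that did were dim, from 4.49 (Mb) to 4.70 (Ttr) on GFP, where the array median was 3.85, so expression above background was not shown. Of the macrophage list 2 of 5 were above the array median, with Csf1r at 11.9 on GFP, Ptprc at 2.22 and Adgre1 at 2.76.

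At the mitochondrial entry step, Cpt1a (probe set 1460409_at, chromosome 19) measured 7.62 on GFP and 7.96, 7.69 and 7.83 on replicates 1 to 3. All 3 arrays lay above GFP, with replicate 2 close to it. The difference was 0.20 (SE 0.15, 95% interval -0.20 to 0.61, limma adjusted p = 0.619), within the precision of the arrays. The further Cpt1a probe sets gave -0.05 at levels from 6.45 to 6.76, with replicate 2 alone below GFP, and 0.07 at levels from 4.73 to 4.88, with replicate 1 identical to GFP.

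Cpt2 (1416772_at, chromosome 4) measured 6.73 on GFP and 7.07, 6.85 and 6.64 on the replicates. It was the only one of the 9 genes whose groups overlapped, because replicate 3 lay below GFP. Its difference was 0.12 (SE 0.20, interval -0.44 to 0.67, limma adjusted p = 0.852), and it was 0.0096 without replicate 1. The further Cpt2 probe set was dim (2.73 to 3.09) and gave -0.06.

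Among the acyl-CoA dehydrogenases, Acadm (1415984_at, chromosome 3) had the largest positive difference of the 9 genes. This enzyme handles medium-chain acyl-CoA, and its human deficiency is a classical disorder of fasting. Its promoter in humans is a textbook target of estrogen-related receptors, and Esrra is among the regulators measured below, so the mouse window is printed with matches to their recognition site AAGGTCA in capitals. The sequence is RefSeq's for GRCm38.p6, chr3:153944594-153944893, minus strand, read 5′ to 3′ from 250 bases before to 50 after the gene's start.

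Acadm: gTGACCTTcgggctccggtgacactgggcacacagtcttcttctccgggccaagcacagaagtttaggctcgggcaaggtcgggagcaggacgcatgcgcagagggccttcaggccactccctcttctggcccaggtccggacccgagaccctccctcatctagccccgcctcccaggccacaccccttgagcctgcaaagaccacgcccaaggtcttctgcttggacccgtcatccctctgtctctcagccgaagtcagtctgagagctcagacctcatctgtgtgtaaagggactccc

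The window held 1 match, on the opposite strand near its upstream edge. On either strand AAGGTCA occurred in 4.72% of 32851 RefSeq promoter windows of 300 bases, and among the windows of the 9 genes, 1 each, in that of Acadm alone. The PPAR and RXR direct repeat AGGTCANAGGTCA, which can overlap that site, was in 0 of the 9 windows and in 0.0396% of all. The NRF1 core GCATGCGC was in those of Acadm and Ppara (2.71% of all), and the cAMP response element TGACGTCA in none of the 9 (1.79% of all). A match is a description of these letters and no evidence of binding. The repeat was searched as exact letters and was in only 13 of the 32851 windows. Its absence from the 9 windows therefore carries no information, and a repeat reaching beyond a window could not be found.

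Acadm measured 7.91 on GFP and 8.25, 8.09 and 8.15 on replicates 1 to 3. The 3 arrays lay above GFP by more than their own spread (SD 0.080). The difference was 0.26 (SE 0.12, interval -0.07 to 0.59), which is 1.19-fold, with limma adjusted p = 0.442. Only this probe set names Acadm.

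Acadvl (1424184_at, chromosome 11), the membrane-bound dehydrogenase of very long chains, measured 8.04 on GFP and 8.14, 8.36 and 8.24 on the replicates. Its arrays all lay above GFP, replicate 2 the furthest. The difference was 0.20 (SE 0.13, interval -0.16 to 0.57, limma adjusted p = 0.577), and Acadvl had no further probe set.

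Acadl (1448987_at, chromosome 1), the long-chain enzyme, measured 8.79 on GFP and 8.80, 8.94 and 8.88 on the replicates. Replicate 1 differed from GFP by only 0.0069, so the groups were barely apart. The difference was 0.08 (SE 0.11, interval -0.22 to 0.39, limma adjusted p = 0.806). Among genes above the median level, the 510 on chromosome 1 had a median difference of -0.34, against 0.03 over all 9096 such genes, and Acadl lay on the other side of 0. The remaining genes sit on chromosomes with medians between -0.03 (chromosome 5) and 0.11 (chromosome 11). A further Acadl probe set, dim at 2.36 to 2.80, gave -0.05.

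Hadha and Hadhb encode the alpha and beta subunits of the trifunctional protein, the first with the hydratase and hydroxyacyl-CoA dehydrogenase activities and the second with the thiolase. They lie head to head on chromosome 5, and their RefSeq start sites are 273 bases apart, so their promoter windows share 228 bases. Both windows are shown because the shared stretch lies between the 2 starts. They are RefSeq sequences of GRCm38.p6, Hadha at chr5:30154931-30155230 on the minus strand and Hadhb at chr5:30155003-30155302 on the plus strand, each 5′ to 3′, with the shared stretch in capitals (the reverse complement of one another).

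Hadha: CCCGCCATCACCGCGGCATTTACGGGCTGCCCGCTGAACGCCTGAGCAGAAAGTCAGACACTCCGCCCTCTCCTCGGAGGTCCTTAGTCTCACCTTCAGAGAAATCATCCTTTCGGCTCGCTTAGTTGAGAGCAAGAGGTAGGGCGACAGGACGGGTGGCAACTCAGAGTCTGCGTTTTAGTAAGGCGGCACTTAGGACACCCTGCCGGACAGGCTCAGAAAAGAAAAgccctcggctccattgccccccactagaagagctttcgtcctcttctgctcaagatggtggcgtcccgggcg
Hadhb: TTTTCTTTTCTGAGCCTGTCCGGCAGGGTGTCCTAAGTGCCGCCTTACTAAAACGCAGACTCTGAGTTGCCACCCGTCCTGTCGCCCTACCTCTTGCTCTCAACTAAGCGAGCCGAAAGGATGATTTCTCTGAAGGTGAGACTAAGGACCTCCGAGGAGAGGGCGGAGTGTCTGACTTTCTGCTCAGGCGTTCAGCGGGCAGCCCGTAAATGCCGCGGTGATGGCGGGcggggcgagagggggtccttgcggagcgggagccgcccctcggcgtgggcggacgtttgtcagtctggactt

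Hadha (1452173_at) measured 8.86 on GFP and 8.57, 8.65 and 8.78 on replicates 1 to 3. All 3 arrays lay below GFP, replicate 3 by 0.08 on the log2 scale. The difference was -0.19 (SE 0.13, interval -0.54 to 0.16, limma adjusted p = 0.586), and it was the only probe set of Hadha.

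The Hadhb values depended on the probe set. The brightest (1437172_x_at) measured 9.70 on GFP and 9.45, 9.09 and 9.64 on the replicates, a difference of -0.31 (SE 0.24, interval -0.96 to 0.35, limma adjusted p = 0.643). Replicate 2 lay the furthest below GFP, and the SD of 0.28 over the replicates was the largest of the 9 genes. A second probe set of Hadhb (1426522_at) measured 9.23 on GFP and 9.23, 9.47 and 9.37 on the replicates, with all 3 arrays on the other side of GFP. Its difference was 0.13 (SE 0.13, adjusted p = 0.762 with limma over 34945 probe sets). Replicate 2 was thus the lowest array by one Hadhb probe set and the highest by the other, and no direction can be given for the gene. The third Hadhb probe set was dim (3.52 to 3.60) and gave -0.07.

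**Figure D2:**
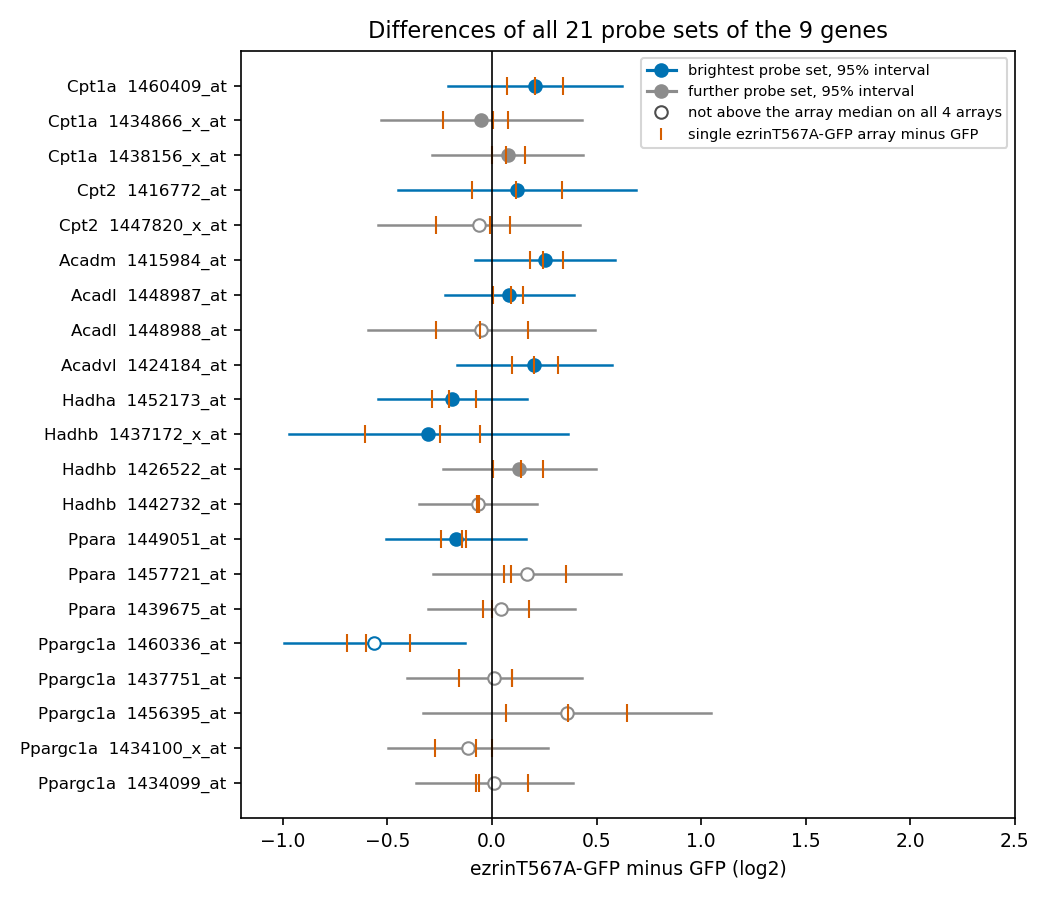
Difference on the log2 scale (horizontal axis, ezrinT567A-GFP mean minus GFP) of each of the 21 probe sets, with its 95% interval from limma over all probe sets. Blue marks the brightest probe set of a gene, grey the further ones, open circles those not above the array median on all 4 arrays, and orange ticks the single arrays. The 6 genes with several probe sets have differences on both sides of 0, and the interval of Ppargc1a's brightest probe set alone lies clear of 0.

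The regulators were measured at dim levels. Ppara (1449051_at, chromosome 15), the fatty acid-sensing nuclear receptor, measured 4.31 on GFP and 4.18, 4.06 and 4.16 on replicates 1 to 3, which is close to the array medians. All 3 arrays lay below GFP, with a difference of -0.17 (SE 0.12, interval -0.49 to 0.15, limma adjusted p = 0.593). Its further probe sets gave 0.17, with all 3 arrays above GFP, and 0.05, with replicate 3 identical to GFP. The direction of Ppara therefore differed between probe sets, at levels where expression above background was not shown.

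Ppargc1a (1460336_at, chromosome 5), the coactivator that drives mitochondrial gene programmes, had the largest difference of the 9 genes. It measured 3.51 on GFP and 2.91, 2.82 and 3.12 on the replicates, all 4 below the array medians. The 3 arrays lay below GFP by 0.60, 0.69 and 0.39 on the log2 scale, more than their SD of 0.16. Whether this probe set was above background is not known, so the size of the difference is uncertain. It was -0.56 (SE 0.16, interval -0.99 to -0.14), with an unadjusted p of 0.0203 and a limma adjusted p of 0.285. None of the 4 further Ppargc1a probe sets had an interval clear of 0. They gave 0.01, 0.36, -0.12 and 0.01, and in 1456395_at all 3 arrays lay above GFP (2.53 on GFP, 2.60, 3.18 and 2.89 on the replicates). The mean over Ppargc1a's probe sets differed by -0.060, so the value of the brightest probe set was not shared by the others. Of the 21 probe sets, 5 had the identical value on at least 2 arrays, as had 16.1% of all tested probe sets and 26.7% of those below the median on every array.

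The genes above the median level whose 4 values ran most like those of Ppargc1a, by Euclidean distance after each gene was centred on its own mean, were Rab29 (distance 0.020), Plk4 (0.032) and Syncrip (0.038). Over only 4 arrays such likeness carries little weight. Within 0.2, a wider limit than these distances, lay 256 of 9096 candidate genes.

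The wider pathway was described through 5 groups of other genes, of which 97 of 105 were analysed here. Of the 97, 63 had a positive and 34 a negative difference, where 56.1% and 43.9% of all genes did. Their median was 0.083, beside 0.032 over all genes, and limma called 0 of the 97 (0% of all genes). At an unadjusted p under 0.05 there were 13 higher and 3 lower, beside 7.46% and 6.50% of all genes. These shares of all genes also stand beside the counts of each group below. The genes named were the 3 with the smallest p in each group.

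Activation and the carnitine shuttle had a positive mean difference for 10 of 16 genes and a median of 0.13, with 3 higher and 2 lower at an unadjusted p under 0.05. The group also held uptake and binding proteins, and the 2 lower genes were the binding proteins Fabp5 and Acbd3. The median was 0.069 without replicate 1, 0.074 without replicate 3 and 0.075 when probe sets were averaged. Fabp5, the epidermal fatty acid-binding protein, measured 6.76 on GFP and 2.32, 3.71 and 2.93 on the replicates, a difference of -3.77 (SE 0.56, limma adjusted p = 0.198). Its second probe set gave -2.58, and because replicate 1 lay below its array's lower quartile the size is uncertain. Markers of basal keratinocytes moved beside it, though limma called 0 of the 6. A negative difference was found for 6 of 6 (43.9% of all genes), with a median of -2.50. Their summed level was 9.25 on GFP and 6.82 to 6.98 on the replicates (log2), with Itga6 the brightest on GFP at 8.14. Krt5 was at 6.73 on GFP and 4.68 ± 0.10 (SD, n = 3). Trp63, below the array median on every array, gave only -0.31 (SE 0.20). The part of these markers in the Fabp5 value was not tested. Acbd3, an acyl-CoA-binding-domain protein of the Golgi, gave -0.51 (SE 0.12). It lies on chromosome 1, and any part of that chromosome's lower median in this value was not tested. The fatty acid transporter Slc27a4 gave 0.45 (SE 0.13), with the identical value on replicates 1 and 3.

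The other mitochondrial enzymes and electron carriers had a positive mean difference for 14 of 22 genes and a median of 0.085, with 2 higher and 1 lower at an unadjusted p under 0.05. With plain _at probe sets alone the median was 0.012 over 18 genes. Hsd17b10, a mitochondrial short-chain hydroxyacyl-CoA dehydrogenase that also serves isoleucine breakdown and mitochondrial tRNA processing, measured 9.25 on GFP and 10.2, 10.1 and 10.1 on the replicates. Its difference was 0.86 (SE 0.09, limma adjusted p = 0.187), and its second probe set gave 0.82. The isomerases for unsaturated chains pointed in opposite directions, Eci1 at -0.54 (SE 0.18) and Eci2 at 0.34 (SE 0.11).

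Peroxisomal oxidation had a positive mean difference for 11 of 16 genes and a median of 0.12, with 3 higher and 0 lower at an unadjusted p under 0.05. The median was 0.071 without replicate 1 and 0.0075 when probe sets were averaged. The dienoyl-CoA isomerase Ech1 measured 8.48 on GFP and 8.90, 9.02 and 8.83 on the replicates (difference 0.44, SE 0.12, limma adjusted p = 0.288). The peroxisomal transporter Abcd2 (0.51, SE 0.11) and the branched-chain oxidase Acox3 (0.31, SE 0.10) were dim, below the array median on every array, and the further Abcd2 probe sets reached down to -0.13. Abcd2 had the identical value on replicates 2 and 3, and the SD of Acox3 over the replicates was only 0.0046, so their spread may be understated. The second Acox3 probe set gave 0.08 (SE 0.26), with 2 of 3 arrays below GFP.

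Among regulators 17 of 28 genes had a positive mean difference, with a median of 0.061, and 3 were higher and 0 lower at an unadjusted p under 0.05. Lpin1, a phosphatidate phosphatase that also coactivates PPAR-alpha in mouse liver, measured 5.29 on GFP and 6.10, 6.26 and 6.18 on the replicates, a difference of 0.89 (SE 0.13, limma adjusted p = 0.198). Its second probe set gave 1.34. Esrra, the orphan receptor through which PGC-1-alpha acts on many oxidative genes, measured 7.21 on GFP and 7.82, 7.91 and 7.73 on the replicates, a difference of 0.61 (SE 0.13, limma adjusted p = 0.241), and 0.41 by its dim second probe set. Acaca, which makes malonyl-CoA, the inhibitor of the outer carnitine acyltransferase and the building block of fatty acid synthesis, gave 0.48 (SE 0.14) and 0.44 by its probe sets.

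PPAR-alpha targets outside the oxidation enzymes had a positive mean difference for 11 of 15 genes and a median of 0.057, with 2 higher and 0 lower at an unadjusted p under 0.05. The median was 0.025 without replicate 3 and 0.088 over the 7 genes above the median level. Acot2, a mitochondrial acyl-CoA thioesterase, measured 5.91 on GFP and 7.28, 7.16 and 6.71 on the replicates (difference 1.14, SE 0.27, limma adjusted p = 0.261). A second, dim Acot2 probe set gave 0.60 (SE 0.30). The paralog Acot1 is close in sequence, so a probe set could read both, which was not tested. By its brightest probe set Acot1 gave 0.0036 (SE 0.15). The triglyceride lipase Pnpla2 measured 5.99 on GFP and 6.94, 6.71 and 6.69 on the replicates (0.79, SE 0.16, limma adjusted p = 0.233), and its dim second probe set gave 0.24. The lipid droplet protein Plin5 gave -0.27 (SE 0.11), with the identical value on replicates 1 and 2, and 0.11 by its second probe set.

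**Figure D3:**
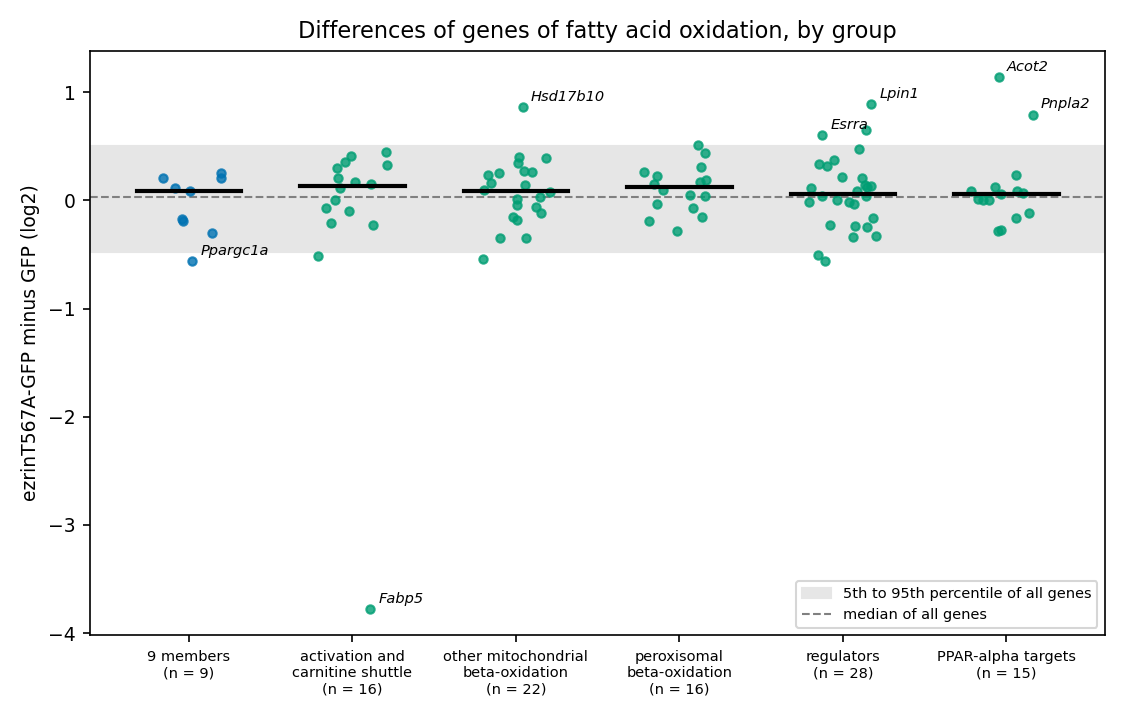
Difference on the log2 scale (vertical axis, ezrinT567A-GFP mean minus GFP) of the 9 genes (blue) and of 5 groups of other fatty acid oxidation genes (green), 1 point per gene, with black bars at group medians. The grey band holds the 5th to 95th percentile of all genes (-0.48 to 0.50) and the dashed line is their median (0.03). Group medians lie between 0.057 and 0.13, and Fabp5 at -3.77 stands apart from the other points.

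**Figure D4:**
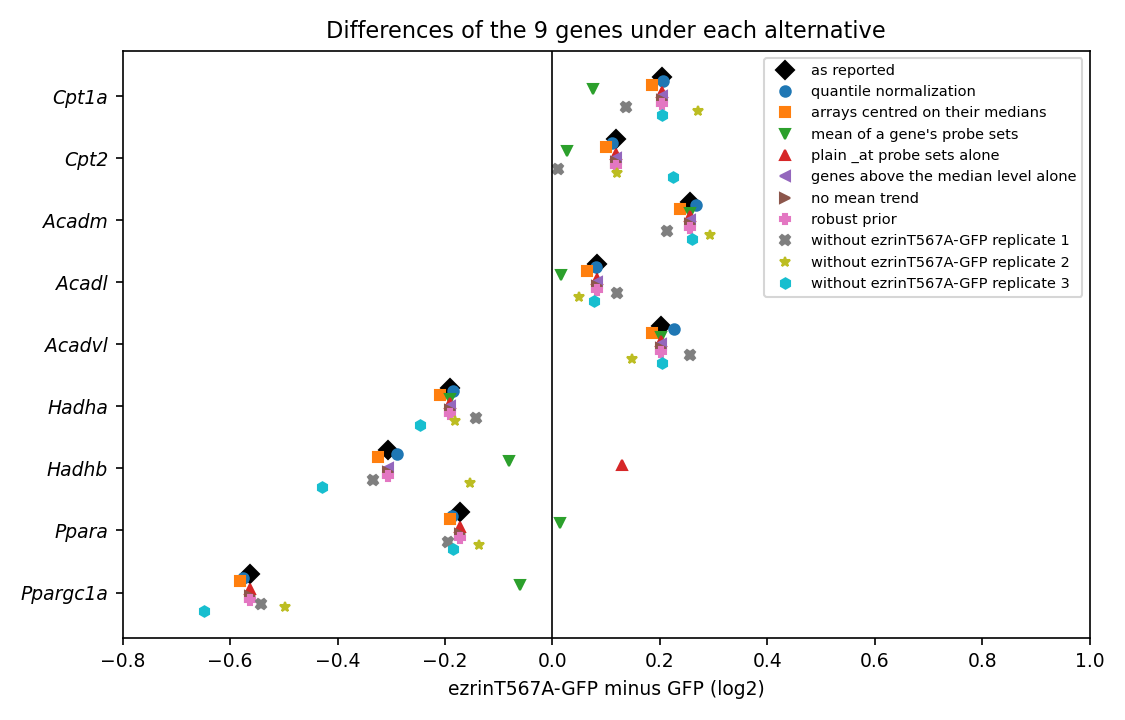
Difference on the log2 scale (horizontal axis) of each of the 9 genes as reported (black diamond) and under 10 alternative settings (coloured symbols, offset vertically). Hadhb crosses 0 with plain _at probe sets alone (0.13) and Ppara with the mean of its probe sets (0.014), and the other 7 genes stay on their side in every setting that measured them.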

How the data were processed

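Gene expression was measured on 4 arrays. The authors deposited log2 values, 1 per probe set, made with RMA per the submitters' processing notes. Their scale was read from the range (1.18 to 13.7), and the software version is not given in the sources used here. The method brings arrays to nearly the same distribution and so hides any difference in total RNA. Of 45101 probe sets 34958 had 1 gene symbol, 932 several and 9211 were not listed. Without control probe sets, 34945 were tested for 18193 genes, each by its probe set with the highest mean. Chromosomes came from a GRCm38.p6 gene table. Groups came from the over-expression label. Limma 3.58.1 in R 4.3.3 (lmFit, eBayes with a mean trend, two-sided, Benjamini-Hochberg over all genes, threshold 0.05) had 2 residual degrees of freedom, which the ezrinT567A-GFP replicates supplied, and 2.23 from the prior. SE denotes the moderated standard error. The fit was tested on simulated data in which the GFP array had the same spread as the others, so that assumption was not tested. The changes in the simulation were larger than any difference of the 9 genes. Alternatives were quantile normalization, centring, other choices of probe sets, a filter on dim genes, other priors and leaving out each replicate. The 9 genes and all lists were chosen with earlier results of these data known. All 9 genes were described, and from each other group the 3 genes with the smallest p. Some listed genes were not analysed here. Figures were drawn with matplotlib 3.10.9.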

Additional observations from a re-analysis of the deposited data

How the results depend on the processing

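None of the 9 genes or the other pathway genes tested passed limma's threshold under the 10 alternatives, which held all 9 and all 97 except that 7 and 72 were left above the median level and 86 of the 97 with plain _at probe sets, and adjusted p of the 9 genes ran from 0.232 to 0.985. Over all genes the count past the threshold was 34 with quantile normalization, 30 with centred arrays, 9 with a robust prior, 6 when probe sets were averaged per gene and 3 with genes above the median level alone, against 0 as reported, with no mean trend, with plain _at probe sets and without each replicate (0 to 0). The median difference of the 9 genes was 0.016 when probe sets were averaged and ranged from 0.0096 to 0.078 without one replicate. The peroxisomal median was 0.0075 with the mean of probe sets. The median of PPAR-alpha targets was 0.088 among genes above the median level and ranged from 0.025 to 0.057 without one replicate. Directions reversed for Hadhb (0.13) and Plin5 (0.11) with plain _at probe sets, where another probe set stands for the gene, and for Ppara (0.014) with the mean of its probe sets. Ezr was 0.33 with plain _at probe sets and 0.17 with averaged ones, while by its brighter probe set values were -0.0068 with centred arrays and -0.020 to 0.061 without one replicate (-0.0059 without replicate 2). Ppara and Ppargc1a have no value among genes above the median level. No paired analysis was possible because the single GFP array shares no replicate number with the others in the labels. The single GFP array limits the precision, and whether the dim probe sets of the regulators were above background is not known.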
